A study of Mus musculus with 24 samples.

Results

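Gene expression in the head of mouse embryos was compared between embryonic days E10.5 and E8.5, counted post coitum, with total RNA from 4 embryos at each stage. The left and the right side of every head, separated along the midline, were each hybridised to 1 Illumina mouse WG-6 array, so that the comparison used 8 arrays at E10.5 and 8 at E8.5, which is 16 of the 24 arrays of the series. The other 8 arrays, from E12.5, entered the fit and were not compared here. All embryos were untreated (C3H/HeH x 101/H)F1 mice, a hybrid of the C3H/HeH and 101/H strains, and the number in each label was taken as the embryo. The labels call the tissue brain, whereas the study describes heads cut from the body, which hold facial mesenchyme, surface ectoderm, vessels and blood as well as the neural tube. Shh and Wnt1, genes of the ventral and the dorsal midline of the neural tube, had been used by the study to choose samples split evenly at the midline. The members of the comparison were all 19406 genes named by the platform's annotation, each read from its brightest probe.

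Around E8.5 the anterior neural plate is folding and closing, its cells are mostly dividing neuroepithelial progenitors, and the heart and first vessels lie close beneath the head. By E10.5 the neural tube has closed into forebrain, midbrain and hindbrain vesicles, blood circulates, neural crest cells have filled the face and pharyngeal arches, and the first neurons leave the cell cycle and grow axons. Notch signalling keeps part of the progenitors from differentiating, while proneural transcription factors drive others into the neuronal lineage.

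Levels are normalized signals in arbitrary units, averaged over the left and right side of an embryo, and a level near or below 0 is at the array's background. Fold changes are given as log2FC, E10.5 minus E8.5, with its SE, on the scale of log2(signal + constant), where the added constant of 119.5 makes the changes of dim genes look smaller than they were. Rose and fell are written of genes whose limma p, adjusted over 46643 probes by the method of Benjamini and Hochberg, was under 0.05. Of 19406 genes, 1539 were higher (7.93%) and 1521 were lower (7.84%) at E10.5, and the median log2FC over all genes was −0.0049. A log2FC beyond 1 was reached by 161 genes upward (0.83%) and by 84 downward (0.433%). The values of the 4 embryos at E10.5 all lay above those of the 4 at E8.5 in 1773 genes (9.14%) and all below in 1700 (8.76%). At the level of probes 2291 were higher (4.91%) and 2703 lower (5.8%), with 210 beyond a log2FC of 1 upward (0.45%) and 110 downward (0.236%), so that 45.9% of the calls were higher, against 35.4% when the arrays were scaled to a common median (1454 higher and 2659 lower). The same mass of labelled RNA was hybridised from every sample and the arrays were quantile normalised, so signals are relative to a sample's RNA. A fall can come from fewer cells of a type, less RNA per cell, or more RNA from other cells, which these data cannot tell apart. Calls were more frequent among bright genes: of the 7183 genes with a mean signal of at least 50, 16.1% were higher and 17.4% lower, and the lists below differ in how many of their members were that bright. A list whose counts lay near these shares was not set apart from genes at large.

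**Figure D1:**
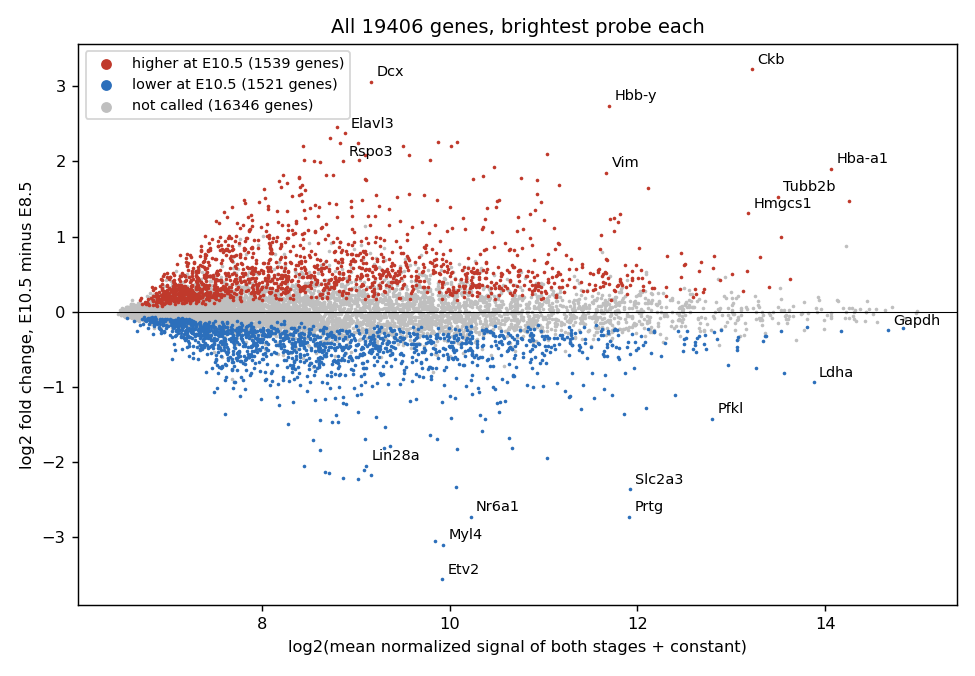
Each point is 1 of 19406 genes, with the log2 of its mean normalized signal over both stages plus the constant on the horizontal axis and its log2FC, E10.5 minus E8.5, on the vertical axis. Red points are the 1539 genes higher and blue points the 1521 genes lower at E10.5, with Ckb at the top and Etv2 at the bottom of this scale.

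The arrays fell into sets that did not follow stage. Over the 16 arrays the first principal component held 40.8% of the variance and set the right sides of embryos 1 and 2 (−39.38 to −13.56) and of embryos 3 and 4 (28.42 to 46.74) on opposite ends, at both stages, with the left sides between −18.84 and 11.4. The second held 34.4% and separated the stages without overlap, from −32.41 to −7.489 at E10.5 and from 2.746 to 34.25 at E8.5. Taken as 4 sets, 1 side of embryos 1 and 2 or of embryos 3 and 4, each held 2 arrays of each stage. With the sets as a block 3716 probes were higher and 4146 lower, and within single sets 1039 to 1650 were higher and 1162 to 1434 lower. No probe had a difference between stages that itself differed between left and right at an adjusted p under 0.05 in limma, while 1117 of the 46643 (2.39%) did at an unadjusted p under 0.05. That share is below what this threshold gives by chance, so the test was a cautious one. The lack of calls therefore does not show that the sides agree. Among the E10.5 heads, embryo 2 stood apart: its summed signal of 35 pan-neuronal genes was 31302, against 21542 to 26051 in the other 3, that of 25 mesenchyme genes 2176 against 3450 to 4360, and that of 25 endothelial genes 5584 against 8443 to 9028. Among the E8.5 heads, embryo 2 had a summed signal of 26 heart genes of 1217, against 7271 to 9595 in the others. Without E10.5 embryo 2 there were 1896 higher and 2058 lower probes, and without E8.5 embryo 2 there were 1911 and 2488.

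Genes that mark neurons in general rose. Of 35 pan-neuronal genes measured, 23 of them with a mean signal of at least 50, 21 rose and 0 fell, with a median log2FC of 0.82. Dcx, which binds microtubules in migrating neurons, gave 539.7, 1322, 899 and 867 at E10.5 (embryos 1 to 4), against −2.47, −0.14, −1.82 and 0.45 at E8.5. It was thus at background in all 4 heads at E8.5 and well above it in all 4 at E10.5 (log2FC 3.06 ± 0.15, SE, adjusted p 3.1e-12). Elavl3, a neuronal RNA-binding protein, had 506, 846, 690.5 and 673 at E10.5, against 24.6, 33.1, 22 and 45.7 at E8.5 (log2FC 2.37 ± 0.15, adjusted p 1.14e-10). Snap25, a SNARE protein of synaptic vesicle release, had 422, 524, 542 and 555 at E10.5 and 33.4, 37.5, 37 and 44.9 at E8.5 (log2FC 1.99 ± 0.10, adjusted p 2.24e-12). In each of the 3 genes embryo 1 was the lowest of the E10.5 heads, and no head of one stage reached the range of the other.

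The other leading neuronal genes followed the same order of stages. The zinc-finger factor Myt1 averaged 639 ± 187 at E10.5 and 14.5 ± 5.74 at E8.5 (SD, n = 4 each), and the axonal adhesion molecule Cntn2 averaged 589 ± 172 at E10.5 and 18.7 ± 1.67 at E8.5. Stmn2, which destabilises microtubules in growing neurites, was 8.08-fold higher in mean signal (1075 ± 284 at E10.5 and 133 ± 18.8 at E8.5), and Tagln3, a calponin-family protein of neurons, was 7.17-fold higher. Stmn4, Rufy3 and Bcl11a, the last a zinc-finger repressor at −0.14 ± 2.77 in E8.5 heads and 453 ± 193 in E10.5 heads, rose by log2FC of 2.01 to 2.24. Genes already strong at E8.5 rose further: Tubb2b, a β-tubulin of neurons, averaged 17047 ± 876 at E10.5 and 5813 ± 437 at E8.5, Fez1, an adaptor for axonal transport, 3289 ± 649.6 and 669 ± 109, and Basp1, a growth cone protein, 12514 ± 753 and 7522 ± 438, in the same order. The probe of Tubb3, the β-tubulin most often used as a neuronal marker, had 133 ± 18.7 at E10.5 and 116 ± 15.8 at E8.5 and was not called (adjusted p 0.623), and 13 more of the 35 genes were not called, most of them dim at both stages.

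**Figure D2:**
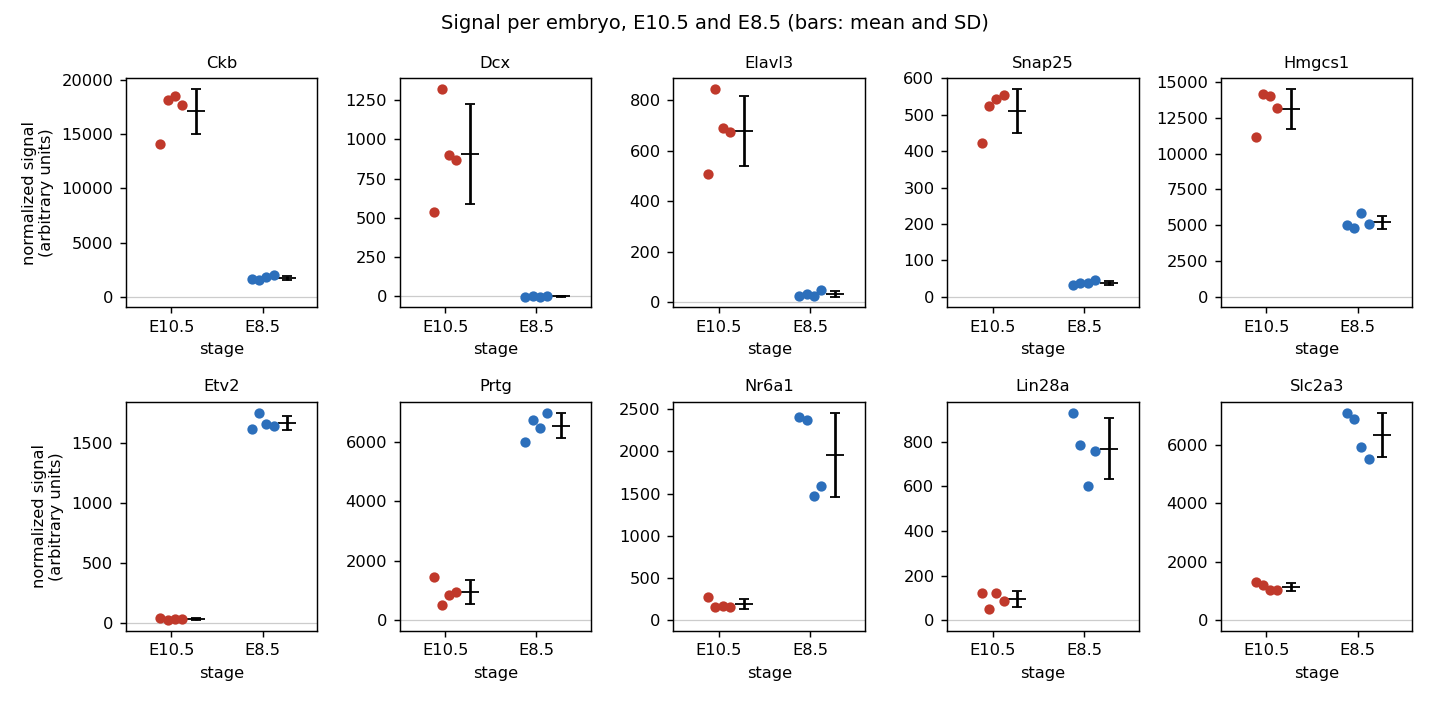
Normalized signal (vertical axis, arbitrary units) of 10 genes in the 4 embryos at E10.5 (left) and at E8.5 (right), with the mean and SD beside the points. Ckb, Dcx, Elavl3, Snap25 and Hmgcs1 lay higher at E10.5 and Etv2, Prtg, Nr6a1, Lin28a and Slc2a3 lower, and in none of the 10 did the embryos of the stages overlap.

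Transcription factors and transmitter genes of neuron types rose in 10 of 30, with 0 lower. Slc17a6, the vesicular glutamate transporter of excitatory neurons, averaged 408 ± 141 at E10.5 and 28.6 ± 7.71 at E8.5 (log2FC 1.79 ± 0.14, adjusted p 2.02e-09). Slc32a1, the vesicular transporter of inhibitory transmitters, averaged 182 ± 112 and 54.7 ± 9.69 in the same order (adjusted p 0.00661), and its call was lost with median scaling and with embryo means. The homeobox gene Onecut2 (734 ± 30.8 at E10.5, 129 ± 17.8 at E8.5), Lhx1 (133 ± 55.4 and 4.02 ± 8.2) and Gata2 (227 ± 36.3 and 81.1 ± 15.7) rose as well. Shox2, a homeobox gene expressed in thalamic and cranial neurons, had 376 to 480.0 at E10.5 and 13.5 to 26.4 at E8.5 (log2FC 2.02 ± 0.06, adjusted p 1.64e-16). Dbx1, which marks progenitors in the middle of the dorsoventral axis, had 669, 1199, 647 and 583 at E10.5, against 42.5, 107, 83.5 and 107 at E8.5.

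Of 35 axon guidance genes 8 rose and 1 fell, and the median of the list, −0.0036, was close to that of all genes. Dcc, the netrin receptor, averaged 275 ± 178 at E10.5 and 21 ± 20.1 at E8.5 (adjusted p 0.00373), and embryos 1 and 2 exceeded embryos 3 and 4 at both stages. Slit2, the ligand of Robo receptors, averaged 317 ± 18.3 at E10.5 and 84.7 ± 8.94 at E8.5 (log2FC 1.09 ± 0.11), and the receptor tyrosine kinase gene Epha5 107 ± 34.1 and −8.87 ± 1.73. The ephrin gene Efnb1 rose by log2FC of 0.53 ± 0.06, a call lost with median scaling (adjusted p 0.0662). Robo1 averaged 819 ± 174 at E10.5 and 453 ± 134 at E8.5 (adjusted p 0.0172), a call lost with median scaling (adjusted p 0.2095), with embryo means (adjusted p 0.0599) and without E10.5 embryo 1 or 2 or E8.5 embryo 3 or 4 (adjusted p 0.0725 to 0.0805), and a dimmer probe of the gene fell (log2FC −0.15). Unc5b, a netrin receptor for repulsion, fell (538 ± 90.1 at E10.5 and 823 ± 150.1 at E8.5), with embryos of the stages overlapping.

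Proneural genes and genes of the Notch pathway rose in 11 of 29, with 0 lower. Neurog2, a proneural factor, had 215, 507, 296 and 291 at E10.5, against 50.4, 49.5, 56.4 and 51.4 at E8.5 (log2FC 1.33 ± 0.16, adjusted p 1.7e-06). Insm1, a zinc-finger factor of newly forming neurons, had 329.6 to 556 in embryos 1 and 2 and 245 to 275 in embryos 3 and 4 at E10.5, against 1.93 to 16.9 over the 4 heads at E8.5. Targets of Notch rose with them: Hes5 averaged 769 ± 182 at E10.5 and 211 ± 28.9 at E8.5, and Nrarp, a feedback inhibitor of the pathway, 2124 ± 286 and 473 ± 78.9. Hes6, which counters Hes1 and favours differentiation, averaged 6614 ± 1290.5 at E10.5 and 2007 ± 269 at E8.5, and Gadd45g, a growth arrest gene of neuronal precursors, was 4.0-fold higher. The summed signal of the list lay at 10859 to 16152 at E10.5 and at 4975 to 5882 at E8.5.

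Of 26 genes of neuroepithelium and radial glia, the progenitor cells of the brain, 14 rose and 2 fell, with a median log2FC of 0.34. Vim, an intermediate filament protein of progenitors and mesenchyme, had 5564, 6606, 3765 and 4124 at E10.5, against 1430.0, 1504, 1113 and 1027 at E8.5 (log2FC 1.85 ± 0.25, adjusted p 1.01e-05). The POU-domain gene Pou3f4 averaged 329.9 ± 58.7 at E10.5 and 19.7 ± 8.61 at E8.5, and Pou3f2 averaged 684 ± 269.7 and 152 ± 61.3, with embryos 1 and 2 above embryos 3 and 4 at either stage. The same split by embryo number was present in Ednrb, an endothelin receptor of crest and glial progenitors, which averaged 1372 ± 375 at E10.5 and 439.6 ± 109 at E8.5. Ttyh1, a membrane protein of neural progenitors, had 264, 645, 279 and 245 at E10.5, against 12.2, 24.4, 20.7 and 16.2 at E8.5. Ptn, a secreted heparin-binding growth factor, had 2967, 3238, 3465 and 3652 at E10.5, against 6916, 6698, 7759.9 and 7768 at E8.5 (log2FC −1.10 ± 0.09, adjusted p 3.01e-09). Msi1, an RNA-binding protein of neural stem cells, was dim and lower (30.4 ± 2.31 at E10.5, 64.4 ± 25.6 at E8.5), a call lost with embryo means (adjusted p 0.0647) and without E8.5 embryo 1 (adjusted p 0.0583) or embryo 2 (adjusted p 0.0514).

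Sox2 and Pax6, transcription factors that define neural progenitors, were not called. Sox2 had 308, 578, 501 and 497 at E10.5, against 206, 273, 505 and 508 at E8.5 (log2FC 0.28 ± 0.22, adjusted p 0.581), and Pax6 had 720.1, 605, 421 and 378 at E10.5, against 1007, 812, 351 and 439 at E8.5 (log2FC −0.20 ± 0.29, adjusted p 0.826). Both were well above background in all 8 heads, and the ranges of the stages overlapped. In Sox2 embryos 3 and 4 were nearly level between the stages, whereas embryos 1 and 2 were higher at E10.5.

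Genes of the early embryo fell. Of 28 genes of pluripotency and the early epiblast, 12 were lower and 0 higher at E10.5. Prtg, an immunoglobulin-family receptor of the neural plate, had 1472, 519, 837 and 943 at E10.5, against 5985, 6710.3, 6466 and 6974 at E8.5, a mean signal 0.144 times as high (log2FC −2.73 ± 0.16, adjusted p 4.08e-11). Nr6a1, a nuclear receptor that represses Pou5f1, had 276, 155, 173 and 157 at E10.5, against 2409.7, 2375, 1475 and 1588 at E8.5 (log2FC −2.72 ± 0.13, adjusted p 1.55e-12). Embryo 1 was the highest at E10.5 in both genes, and no head at E10.5 came near the lowest at E8.5.

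Lin28a, an RNA-binding protein that blocks maturation of let-7 microRNAs, had 122, 49.4, 121 and 88.8 at E10.5, against 930.4, 787, 599.8 and 759 at E8.5 (log2FC −2.05 ± 0.11, adjusted p 6.28e-12). Trim71, itself a let-7 target, averaged 123 ± 63.7 at E10.5 and 537 ± 33.3 at E8.5 (log2FC −1.47 ± 0.10). Dnmt3b, the de novo DNA methyltransferase of the early embryo, averaged 1960.3 ± 132 at E10.5 and 5244 ± 379 at E8.5 (log2FC −1.36 ± 0.08, adjusted p 1.99e-11). Sall4, a zinc-finger factor of the epiblast, was 0.467 times as high at E10.5, and Tet1, which oxidises 5-methylcytosine, 0.593 times as high. Members tied to the pluripotent state itself were near background at both stages: Nanog, not called, had −3.73 at E10.5 and 3.21 at E8.5, and Pou5f1, which fell, had 15.3 and 27.2. Igdcc3, a relative of Prtg, was not lower: it averaged 5039.7 ± 985 at E10.5 and 3478 ± 648 at E8.5 (log2FC 0.51 ± 0.17, adjusted p 0.056), and was called higher with the replicate number as a block (adjusted p 0.0041), without E10.5 embryo 2 (adjusted p 0.0202) and without E8.5 embryo 4 (adjusted p 0.0233).

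Genes of the isthmic organiser, the signalling centre between midbrain and hindbrain, fell in 5 of 18 and rose in 1. Over all genes 7.84% fell and 7.93% rose. En1, a homeobox gene of the midbrain and anterior hindbrain, had 469, 643, 533 and 497 at E10.5, against 1912, 2110.0, 1495 and 1815 at E8.5 (log2FC −1.58 ± 0.14, adjusted p 1.83e-08). Gbx2, which positions the organiser from the hindbrain side, had 405, 437, 459 and 490.3 at E10.5, against 1320.5, 1172, 1599 and 1473 at E8.5 (log2FC −1.41 ± 0.13, adjusted p 6.28e-08). Wnt1 averaged 31.9 ± 5.03 at E10.5 and 139 ± 17.1 at E8.5, and Irx3 1428 ± 208 and 2325 ± 207. The exception was Fgf17, a fibroblast growth factor of the same region, at 42.3 ± 10.1 in E10.5 heads and 9.76 ± 6.71 in E8.5 heads (log2FC 0.32 ± 0.07, adjusted p 0.00291).

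Of 22 forebrain and eye field factors 6 rose and 0 fell, against 7.93% and 7.84% of all genes. Dlx1, a homeobox gene of inhibitory forebrain precursors, averaged 125 ± 24.1 at E10.5 and 6.33 ± 7.06 at E8.5, Fezf2, a zinc-finger gene of the rostral forebrain, 1140.0 ± 177 and 525 ± 26.4, and Lhx2 138 ± 25.6 and 79.8 ± 12.47. The calls of Lhx2 and of Tcf7l2 (log2FC 0.53 ± 0.16) were lost with median scaling, and that of Lhx2 also with embryo means and that of Tcf7l2 also without E10.5 embryo 3 or 4 or E8.5 embryo 1, 2 or 3 (adjusted p 0.0659 to 0.0879). Among Hox paralogues 1 to 4, which mark hindbrain segments, 3 of 11 fell and 0 rose, against 7.84% and 7.93% of all genes. Hoxb2 had 280.5, 46.6, 166 and 247 at E10.5, against 664, 388, 624 and 799.9 at E8.5 (log2FC −1.34 ± 0.26, adjusted p 0.000897), and Hoxb1 averaged 81 ± 17.5 and 156 ± 24.1 in the same order. Hoxa2 (log2FC −0.69 ± 0.21) lost its call with median scaling (adjusted p 0.0754) and with embryo means (adjusted p 0.229), and its adjusted p was 0.194 without E10.5 embryo 2, the head that was lowest in Hox genes, and 0.0693 to 0.121 without E10.5 embryo 3 or E8.5 embryo 3 or 4. The 23 paralogues 5 to 13, markers of the trunk, gave 0 calls in limma, and their summed signal was 108 to 216 at E10.5 and 164 to 293 at E8.5.

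Pathway lists held calls in both directions. In the Wnt pathway 9 of 35 genes rose and 5 fell, against 7.93% and 7.84% of all genes. The Hedgehog list, with 2 of 16 higher and 1 lower, lay nearer those shares. Rspo3, a secreted enhancer of Wnt signalling, had 636, 537, 581 and 756 at E10.5, against 51.5, 55.6, 68.4 and 90.4 at E8.5, a 9.44-fold higher mean signal (log2FC 2.0 ± 0.10, adjusted p 2.43e-12), and its relative Rspo1 averaged 86.3 ± 26.1 and 8.97 ± 6.07. The receptor gene Fzd7 fell (89.1 ± 18.5 at E10.5, 190.1 ± 46.1 at E8.5). The ligand genes Wnt5a (higher, adjusted p 0.0158) and Wnt6 (lower, adjusted p 0.0312) lost their calls with embryo means, Wnt5a also with median scaling, and both when 1 embryo was left out, Wnt5a without E10.5 embryo 3 or 4 or E8.5 embryo 2 (adjusted p 0.0547 to 0.0708) and Wnt6 without E10.5 embryo 1 or 2 or any E8.5 embryo (adjusted p 0.0532 to 0.143). Shh, the ligand of the Hedgehog pathway, had 851, 954, 915 and 811 at E10.5, against 228, 434, 410.4 and 412 at E8.5 (log2FC 1.03 ± 0.20, adjusted p 0.000822), while the pathway's inhibitor Sufu fell (log2FC −0.53 ± 0.07). The third call among 16 Hedgehog genes was Nkx2-2, a homeobox gene of ventral progenitors, which was dim and higher (32.8 ± 17.2 at E10.5, −0.93 ± 7.43 at E8.5) and not called with median scaling, with embryo means, or without E10.5 embryo 1 or 2 or E8.5 embryo 1, 3 or 4 (adjusted p 0.0692 to 0.117).

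In the BMP and TGF-beta list 3 of 30 rose and 6 fell, and 16 of the 30 had a mean signal of at least 50. Over all genes that bright the shares were 16.1% and 17.4%. The Id genes, targets of BMP that hold back differentiation, moved in opposite directions: Id4 averaged 203 ± 50.4 at E10.5 and 29 ± 9.35 at E8.5, whereas Id1 averaged 837 ± 111 and 1626 ± 89 and Id2 331 ± 115 and 728 ± 47.6. Fst, which binds activin, fell (163 ± 26.3 at E10.5, 532 ± 109 at E8.5, log2FC −1.21 ± 0.13), and the TGF-beta receptor gene Tgfbr1 rose (3899.9 ± 249.8 and 2365 ± 225). Of 17 genes of the retinoic acid pathway, 1 rose, the retinol transporter gene Stra6 (86.9 ± 25.3 at E10.5, 30.6 ± 7.91 at E8.5), and 1 fell, Aldh1a2, which makes retinoic acid and was dim at both stages (16.6 ± 7.83 and 41 ± 3.95). Both counts were near the shares over all genes (7.93% and 7.84%).

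**Figure D3:**
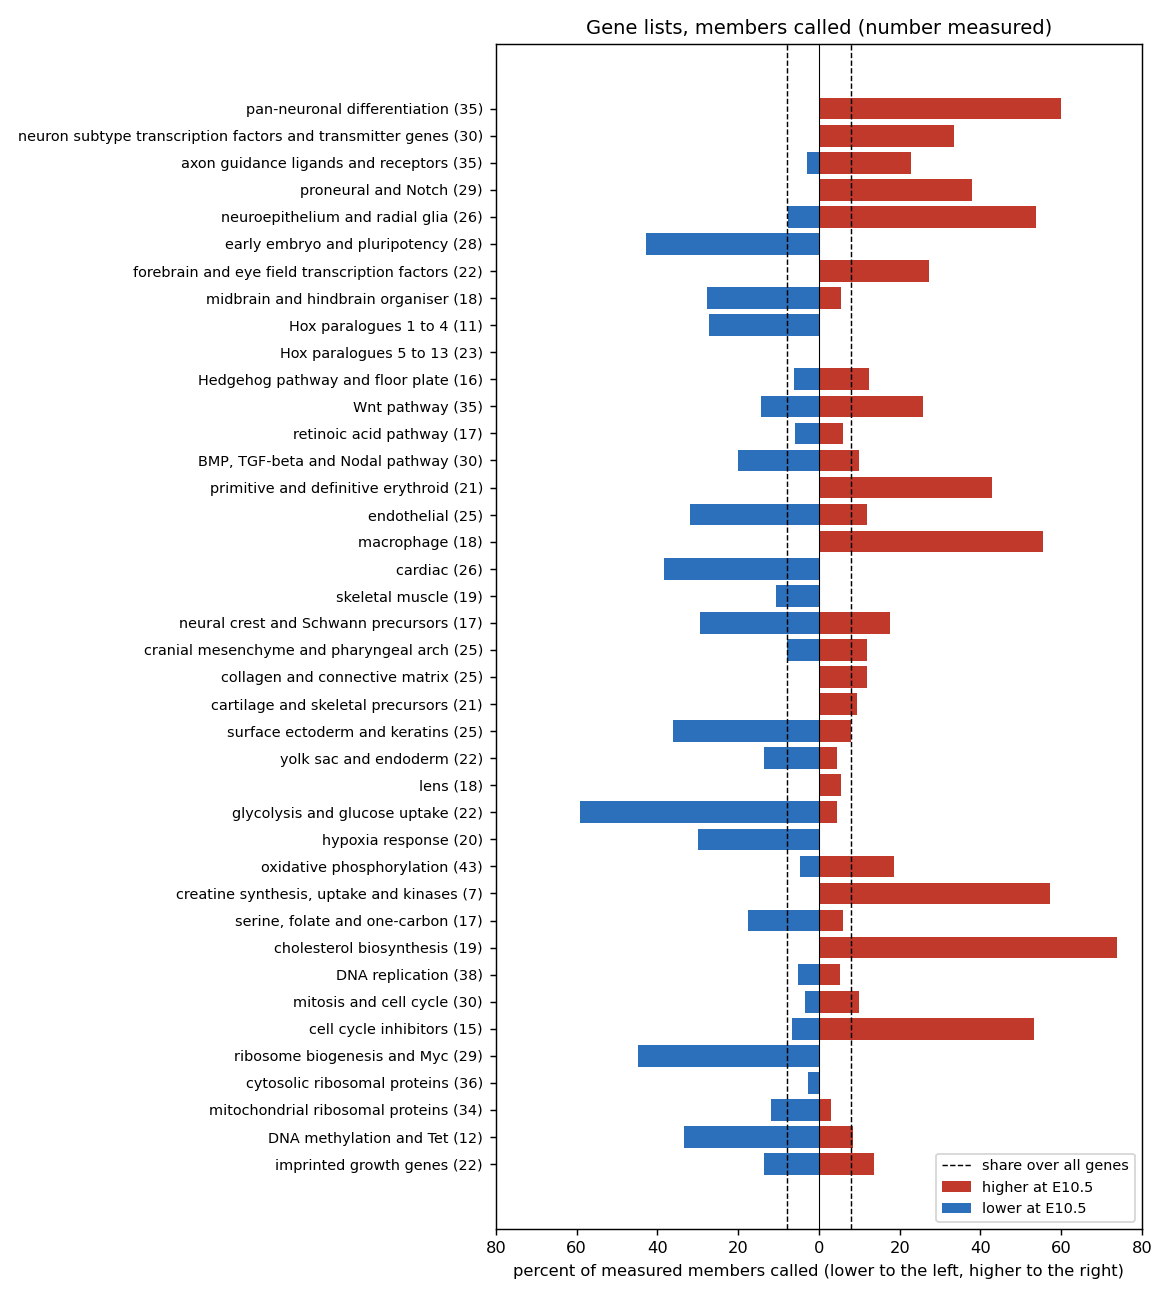
For each gene list, the percent of measured members (their number in brackets) called higher at E10.5 is drawn to the right in red and the percent called lower to the left in blue, with the shares over all genes (7.93% and 7.84%) as dashed lines. Cholesterol, pan-neuronal and creatine genes reached furthest to the right, and glycolysis, ribosome biogenesis and early embryo genes furthest to the left.

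The highest log2FC of all genes, on the scale that makes changes of dim genes look smaller, belonged to a gene of energy metabolism. Ckb, the brain-type creatine kinase that buffers ATP through phosphocreatine, had 14057, 18171, 18525 and 17745 at E10.5, against 1597, 1540.1, 1781 and 1994 at E8.5. The stages were far apart relative to the spread in either, with a 9.91-fold higher mean signal (log2FC 3.22 ± 0.08, adjusted p 3.13e-18). Gamt, which makes creatine, had 507 ± 117 at E10.5 and 268 ± 21.4 at E8.5, and Slc6a8, the creatine transporter gene, 519 ± 26.3 and 309 ± 30.1. The mitochondrial kinase gene Ckmt1 was dim (31.3 ± 14.8 and 2.05 ± 5.22, adjusted p 0.0311), a call lost with embryo means (adjusted p 0.0536) and without E10.5 embryo 2, 3 or 4 or E8.5 embryo 1, 3 or 4 (adjusted p 0.0503 to 0.149). In all, 4 of 7 genes of the list rose and 0 fell. Oxct1, the enzyme that lets tissue burn ketone bodies, had 1235, 1956, 1716 and 1773 at E10.5, against 231, 242, 281 and 253 at E8.5 (log2FC 2.26 ± 0.10, adjusted p 5.5e-13).

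Genes of glycolysis and glucose uptake fell in 13 of 22 and rose in 1, with a median log2FC of −0.60. Slc2a3, the high-affinity glucose transporter GLUT3, had 1326, 1195, 1034 and 1056 at E10.5, against 7088, 6888, 5931 and 5517 at E8.5, a mean signal 0.181 times as high (log2FC −2.36 ± 0.15, adjusted p 1.52e-10). Pfkl, a phosphofructokinase subunit, had 3676, 3201, 3988 and 4169 at E10.5, against 10744, 10318, 9644 and 10187 at E8.5 (log2FC −1.42 ± 0.08, adjusted p 1.61e-11). Slc2a1, the transporter GLUT1, averaged 1994 ± 321 at E10.5 and 4180.4 ± 511 at E8.5, and Hk2, a hexokinase, 2204 ± 260.3 and 4021 ± 262. Steps further down the pathway fell too: Aldoa was 0.403, Tpi1 0.564, Pkm 0.591 and Gapdh 0.843 times as high in mean signal at E10.5, though a dimmer probe of Tpi1 was not called (225 at E10.5 and 197 at E8.5). Pgk1 averaged 1771 ± 711 and 3947 ± 1203, with embryos 1 and 2 above embryos 3 and 4 at both stages, and its adjusted p of 0.0287 became 0.1 to 0.114 without E10.5 embryo 3 or 4 or E8.5 embryo 1 or 2, 0.0537 with median scaling and 0.0796 with embryo means.

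The subunits of lactate dehydrogenase moved in opposite directions. Ldha, which favours making lactate, had 10232, 8135, 10769.7 and 11869.8 at E10.5, against 17279, 19742, 21026 and 20298 at E8.5 (log2FC −0.93 ± 0.11, adjusted p 1.68e-06). Ldhb, which favours using it, had 2141, 2313, 2787 and 2855 at E10.5, against 861, 885, 1082 and 987 at E8.5, and was the 1 member of the list to rise (log2FC 1.30 ± 0.09, adjusted p 7.21e-10). Of 20 genes of the response to low oxygen 6 fell and 0 rose. Of the 20, 12 had a mean signal of at least 50, and over all genes that bright 17.4% fell and 16.1% rose. Hk2, Slc2a1 and Pdk1, members of this list, also stand in the glycolysis list. Outside that overlap, Car12, a membrane carbonic anhydrase, averaged 247 ± 83.9 at E10.5 and 580.0 ± 31.1 at E8.5, and P4ha2, a collagen prolyl hydroxylase subunit, 145 ± 47.4 and 275 ± 13.4, a call lost when embryo means were tested.

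Hypoxia-inducible factor binds DNA at sites whose core is ACGTG or GCGTG. In windows from 250 bases before to 50 after the annotated start, from RefSeq on GRCm38.p6, ACGTG on either strand was present in 24.6% of the 15552 measured genes with a window and in 14 of the 21 glycolysis genes with one (66.7%). Of the 12 that fell 7 held it (58.3%), a lower share than that of the whole list, so the motif did not set the falling members apart. GCGTG was present in 14 of the 21 as well (66.7%), but in 43.9% of all genes with a window, in 20 of 32 in oxidative phosphorylation (62.5%) and in 18 of 23 in ribosome biogenesis (78.3%). The search covered 15 motifs in 7 lists, some of which contain each other, and these motifs were chosen for display after the counts were seen. A match describes the letters only and is not a bound site. The windows of Slc2a1 (chr4:119108495-119108794, plus strand), Ldha (chr7:46845554-46845853, plus strand, 1 of 2 windows) and Pgk1 (chrX:106186850-106187149, plus strand) are shown as examples of falling genes, with ACGTG and its reverse complement in capitals.
Slc2a1: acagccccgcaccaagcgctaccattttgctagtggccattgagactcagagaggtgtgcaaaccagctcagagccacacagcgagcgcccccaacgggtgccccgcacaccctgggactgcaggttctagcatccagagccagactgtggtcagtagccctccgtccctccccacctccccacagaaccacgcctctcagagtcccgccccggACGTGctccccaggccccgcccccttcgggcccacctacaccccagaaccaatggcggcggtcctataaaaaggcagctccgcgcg
Ldha: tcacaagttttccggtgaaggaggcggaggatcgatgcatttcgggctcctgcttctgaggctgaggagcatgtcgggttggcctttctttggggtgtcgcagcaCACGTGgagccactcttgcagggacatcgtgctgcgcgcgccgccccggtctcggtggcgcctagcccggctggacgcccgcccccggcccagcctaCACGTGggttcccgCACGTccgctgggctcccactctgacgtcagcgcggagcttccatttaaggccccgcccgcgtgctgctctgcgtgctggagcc
Pgk1: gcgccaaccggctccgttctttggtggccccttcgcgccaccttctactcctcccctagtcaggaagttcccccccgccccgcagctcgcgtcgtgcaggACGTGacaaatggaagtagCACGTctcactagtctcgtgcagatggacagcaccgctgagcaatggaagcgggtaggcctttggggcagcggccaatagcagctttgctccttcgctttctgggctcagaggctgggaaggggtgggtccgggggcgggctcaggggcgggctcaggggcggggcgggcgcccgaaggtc
Slc2a1 held 1 match, Pgk1 2, and Ldha 5, counting the overlapping pairs that the palindrome CACGTG gives on both strands.

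Genes of cholesterol synthesis rose in 14 of 19, with 0 lower and a median log2FC of 0.53. Hmgcs1, which makes HMG-CoA at the entry of the pathway, had 11134, 14157, 14019 and 13191 at E10.5, against 5009, 4822, 5868 and 5108 at E8.5, a 2.52-fold higher mean signal (log2FC 1.31 ± 0.07, adjusted p 6.31e-12). Sqle, the epoxidase that commits squalene to sterols, averaged 2122 ± 134 at E10.5 and 1148 ± 303 at E8.5 (log2FC 0.85 ± 0.13). Msmo1 and Cyp51, which demethylate sterols, were 2.87-fold and 2.07-fold higher, Tm7sf2, a sterol reductase, 2.73-fold and Hsd17b7, a ketosteroid reductase of the pathway, 2.06-fold. Insig1, which retains the regulator SREBP in the endoplasmic reticulum when sterols are plentiful, had 66.3, 140.4, 60.6 and 62.5 at E10.5, against −4.38, 8.75, 60.8 and 19.5 at E8.5, with the stages overlapping in 1 head, and its call was lost with median scaling. With median scaling 9 of the 19 were called, all higher.

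The promoters of this list shared letters that the choice of genes had not used. CCAAT, the core of the site of the factor NF-Y, was present on either strand in 16 of the 16 genes with a window and in 42% of all measured genes with one, against 9 of 21 (42.9%) in glycolysis, 13 of 32 (40.6%) in oxidative phosphorylation, 5 of 23 (21.7%) in ribosome biogenesis, 14 of 23 (60.9%) in pan-neuronal, 8 of 16 (50%) in erythroid and 10 of 22 (45.5%) in heart genes. GGGCGG, the GC box that Sp1 binds, was in 15 of the 16 (93.8%) and in 52.1% of all genes with a window. It was also frequent in lists that fell, in 15 of 21 in glycolysis (71.4%) and 16 of 23 in ribosome biogenesis (69.6%). The other lists had it in 14 of 23 pan-neuronal (60.9%), 15 of 32 oxidative phosphorylation (46.9%), 6 of 16 erythroid (37.5%) and 6 of 22 heart genes (27.3%). Since every window of the list held CCAAT, the 11 of members that rose could not differ in it from the rest of the list. GGGCGG was in 10 of those 11. TCACNCCAC, the core of the sterol response element that SREBP binds, was present in 1 of the 16, Hmgcs1, and in 1.49% of all genes with a window. The windows of Hmgcs1 (chr13:119690101-119690400, plus strand), Msmo1 (chr8:64733529-64733828, minus strand) and Cyp51 (chr5:4104648-4104947, minus strand) are shown, with CCAAT or its reverse complement in capitals and, in Hmgcs1, the 9 letters of the sterol element as well.
Hmgcs1: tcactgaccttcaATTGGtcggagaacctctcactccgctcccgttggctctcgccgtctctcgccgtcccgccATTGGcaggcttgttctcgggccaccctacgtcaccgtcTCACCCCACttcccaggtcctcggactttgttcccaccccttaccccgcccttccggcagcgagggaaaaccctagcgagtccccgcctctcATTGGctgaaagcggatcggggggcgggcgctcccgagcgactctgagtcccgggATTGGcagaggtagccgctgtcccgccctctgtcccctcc
Msmo1: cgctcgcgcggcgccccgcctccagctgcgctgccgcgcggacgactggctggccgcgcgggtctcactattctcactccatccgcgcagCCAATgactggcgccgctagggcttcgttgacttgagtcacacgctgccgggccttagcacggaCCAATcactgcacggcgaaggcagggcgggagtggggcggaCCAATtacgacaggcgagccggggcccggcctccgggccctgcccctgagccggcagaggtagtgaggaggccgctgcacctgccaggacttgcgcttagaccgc
Cyp51: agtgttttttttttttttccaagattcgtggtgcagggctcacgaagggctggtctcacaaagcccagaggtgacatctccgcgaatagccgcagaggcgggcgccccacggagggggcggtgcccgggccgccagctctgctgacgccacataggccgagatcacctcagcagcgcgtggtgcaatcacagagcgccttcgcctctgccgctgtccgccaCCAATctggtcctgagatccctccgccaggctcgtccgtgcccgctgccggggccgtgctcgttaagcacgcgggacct
Hmgcs1 held 5 matches in all, Msmo1 3 and Cyp51 1.

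**Figure D4:**
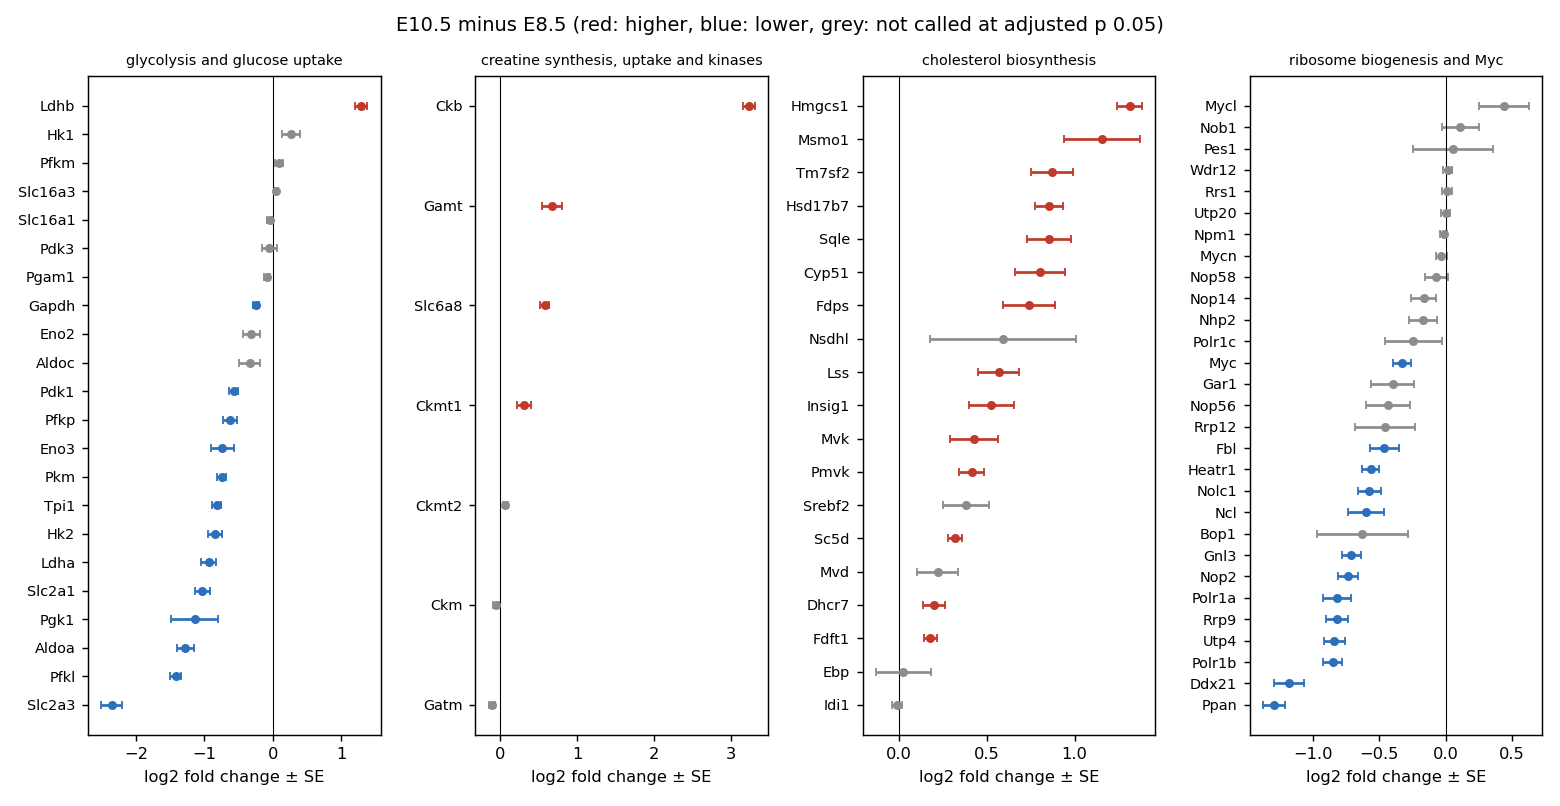
Log2FC, E10.5 minus E8.5, with its SE (horizontal axis) for every measured member of 4 lists, in red where higher, blue where lower and grey where not called at an adjusted p under 0.05. Glycolysis and ribosome biogenesis genes lie mostly to the left, Ldhb apart, and creatine and cholesterol genes mostly to the right.

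Oxidative phosphorylation, the respiratory chain of mitochondria, rose in 8 of 43 genes and fell in 2. Of the 43, 37 had a mean signal of at least 50, and over all genes that bright the shares were 16.1% and 17.4%. Cox6a1 of complex IV averaged 4553 ± 374 at E10.5 and 3092 ± 415 at E8.5 (log2FC 0.54 ± 0.10), Sdhc of complex II 4412 ± 117 and 3217 ± 224, and Atp5o of the ATP synthase 6412 ± 734 and 4644 ± 755. With median scaling 0 of the 43 were called higher in limma and 2 lower, so the increases depended on the scaling of the arrays, and Atp5o was also lost without E10.5 embryo 2 or E8.5 embryo 3 or 4 (adjusted p 0.0528 to 0.0571). The genes that fell, Atp5a1 (151 ± 40 at E10.5, 363 ± 69.5 at E8.5) and Uqcrq (161 ± 34.5 and 330.4 ± 43.7), each had a second probe at background that was not called. In folate and one-carbon metabolism 1 of 17 rose and 3 fell, the mitochondrial serine enzyme Shmt2 (log2FC −0.73 ± 0.14), the folate carrier Slc19a1 (log2FC −0.72 ± 0.11) and the mitochondrial formate enzyme Mthfd1l (log2FC −0.66 ± 0.18). The list was not set apart from genes with a mean signal of at least 50 (16.1% higher, 17.4% lower), which 12 of the 17 had. A dimmer probe of Shmt2 was not called (76.4 at E10.5 and 115.9 at E8.5). The call of Mthfd1l was lost with median scaling and without E10.5 embryo 3 or 4 or E8.5 embryo 1 (adjusted p 0.0525 to 0.0743).

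Genes that build ribosomes fell in 13 of 29, with 0 higher and a median log2FC of −0.43. Ppan, a factor of large subunit assembly, had 1652, 1248, 1469 and 1399.8 at E10.5, against 4146, 3875, 3398 and 3475 at E8.5 (log2FC −1.29 ± 0.08, adjusted p 1.91e-10). Ddx21, a nucleolar RNA helicase, averaged 348 ± 79.8 at E10.5 and 941 ± 159 at E8.5, Polr1b, a subunit of RNA polymerase I, 462 ± 65.8 and 929 ± 87.2, the nucleolar GTPase gene Gnl3 5963 ± 566 and 9836 ± 403, and Ncl, the gene of nucleolin, 1414 ± 179.7 and 2203 ± 302. Utp4 and Rrp9, of small subunit processing, were 0.522 and 0.513 times as high. Myc, a transcription factor that drives ribosome synthesis, was dim and fell (13.1 ± 3.8 at E10.5, 48.8 ± 22.2 at E8.5). The count of members lower was also 13 with median scaling, with embryo means and without embryo 2 of either stage. Proteins of the cytosolic ribosome itself fell in 1 of 36, Rpl22 (log2FC −0.39 ± 0.08), and those of the mitochondrial ribosome fell in 4 of 34, among them Mrps18b (log2FC −0.66 ± 0.11), and rose in 1, Mrpl34 (log2FC 0.76 ± 0.11). Calls were rarer in both lists than over genes with a mean signal of at least 50 (16.1% higher, 17.4% lower). That signal was reached by 34 of the 36 and 29 of the 34.

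Inhibitors of the cell cycle rose in 8 of 15 and fell in 1. Cdkn1c, an imprinted inhibitor that rises as precursors exit the cycle, had 12287, 14180.1, 18346 and 17735 at E10.5, against 7334, 6161, 8957 and 8626 at E8.5, a 2.01-fold higher mean signal (log2FC 0.99 ± 0.13, adjusted p 6.56e-06). Rb1, the retinoblastoma gene, averaged 478 ± 95.9 at E10.5 and 195 ± 45.6 at E8.5, Cdkn2c 208 ± 45.9 and 95.5 ± 18.9, and Cdkn1a 109 ± 32.4 and 18.5 ± 13.9. Gadd45a, a stress gene of the same family as Gadd45g, was the member that fell (log2FC −0.49 ± 0.10). G1 cyclins and their kinase rose with the inhibitors: Cdk6 averaged 448 ± 97.3 at E10.5 and 177 ± 33.7 at E8.5, Ccnd1 8439 ± 577 and 5592 ± 521, and Ccnd2 7534 ± 648 and 5151 ± 430.3. The calls of Ccnd1 and Ccnd2 were lost with median scaling, and a dim probe of Ccnd2 fell while its bright ones rose. Of 38 DNA replication genes 2 rose, Rpa3, a subunit of the single-strand binding complex (1.41-fold), and Rrm2, a ribonucleotide reductase subunit (1.37-fold). Both calls were lost with median scaling, a dimmer probe of Rrm2 was not called (419.9 at E10.5 and 432.5 at E8.5), and that of Rpa3 also without E8.5 embryo 1 (adjusted p 0.0537). The members that fell were Mcm5 of the replicative helicase by log2FC of −0.36 ± 0.07 and the polymerase subunit Pold1 by −0.59 ± 0.09. Calls were rarer here than over genes with a mean signal of at least 50 (16.1% higher, 17.4% lower), which 31 of the 38 had. Of 30 genes of mitosis and the cycle 3 rose, the G1 genes above, and 1 fell, the cyclin E gene Ccne1 (log2FC −0.41 ± 0.12), a call lost with embryo means (adjusted p 0.157) and without E10.5 embryo 2 or any E8.5 embryo (adjusted p 0.053 to 0.1755).

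Genes of blood, heart and vessels changed with stage in these heads, and their part in the results above was not tested. Of 21 erythroid genes 9 rose and 0 fell, and the summed signal of the list was 80843 to 103491 at E10.5 and 17737 to 64773 at E8.5. Hbb-y, an embryonic β-like globin, had 6970.1, 6985, 4331 and 4223 at E10.5, against 295, 731, 1005 and 1172 at E8.5 (log2FC 2.74 ± 0.26, adjusted p 5.03e-08). Hba-a1, the adult α globin, averaged 25641 ± 1789.8 at E10.5 and 8278 ± 5366 at E8.5, and Alas2, the erythroid enzyme of haem synthesis, 811 ± 191 and 256 ± 148. At E8.5 Hbb-y, Hba-a1, Hba-x, Hbb-bh1, Slc4a1, Alas2 and Hemgn were all lowest in embryo 1 and highest in embryo 4. Hbb-bs did not follow this order, with 1475, 587, 1379 and 1248 in E8.5 embryos 1 to 4. Globin probes of near-identical copies may share RNA, so their single values are uncertain. Hbb-bh1 was not called (23878 ± 3010.3 at E10.5, 14033 ± 6030.2 at E8.5, adjusted p 0.151), and was with the replicate number as a block (adjusted p 0.036). The calls of Hba-x (adjusted p 0.00691), Slc4a1 (adjusted p 0.011) and Hbb-bs (adjusted p 0.0114) were lost when embryo means were tested, that of Slc4a1 also without E8.5 embryo 1 (adjusted p 0.0733) or 2 (adjusted p 0.0511), and that of Hbb-bs also with median scaling (adjusted p 0.0616) and without E8.5 embryo 2 (adjusted p 0.0753). Without E10.5 embryo 2, at 6406 the highest by far, the log2FC of Hbb-bs was 0.68 against 1.11 with all embryos.

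Heart genes fell in 10 of 26, with 0 higher. Myl4, an atrial myosin light chain, had 35.3, 31.8, 33.3 and 56.6 at E10.5, against 2398, 252, 2001 and 2030.0 at E8.5 (log2FC −3.10 ± 0.48, adjusted p 5.18e-05). Myh7, a cardiac myosin heavy chain, had 27.5, 77.4, 36.8 and 50.6 at E10.5, against 1974, 388, 1929 and 1930.3 at E8.5 (log2FC −3.05 ± 0.31, adjusted p 1.87e-07), and a dim probe of the same gene was not called. Embryo 2 was thus low in both genes at E8.5, though above all heads at E10.5. Tnnt2, cardiac troponin T, averaged 16.4 ± 3.62 at E10.5 and 676 ± 404 at E8.5, the actin gene Actc1 29.3 ± 14.8 and 776 ± 474, Myl3 −7.91 ± 3.76 and 467 ± 370.3, and Tnnc1 29.3 ± 6.15 and 478 ± 293. Without E8.5 embryo 2, 13 of the 26 were called lower and Myl4 had a log2FC of −3.72, whereas with embryo means 6 were called and Actc1 (adjusted p 0.0617) and Tnnc1 (adjusted p 0.089) were not. Within the sets of embryos 1 and 2 neither Myl4 (adjusted p 0.171 left and 0.138 right) nor Myh7 (adjusted p 0.0636 left and 0.0952 right) was called, though both kept their direction. Factors of the heart field were dim at both stages: Nkx2-5 fell, with 32.4 at E10.5 and 67.5 at E8.5, and Tbx5, not called, had 46.5 and 65.5.

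Etv2, an ETS factor that starts the blood and endothelial lineages, had the lowest log2FC of all genes, again on the scale that makes changes of dim signals look smaller. It had 38.3, 22.2, 32.4 and 33.7 at E10.5, against 1617, 1752, 1660.0 and 1639.6 at E8.5 (log2FC −3.56 ± 0.06, adjusted p 2.73e-21). The heads at E8.5 agreed closely, embryo 2 included, and those at E10.5 were all near background. Of 25 endothelial genes 3 rose and 8 fell. A mean signal of at least 50 was reached by 21 of the 25, and over all genes that bright 16.1% rose and 17.4% fell. Egfl7, a secreted protein of vessels, averaged 1474 ± 446 at E10.5 and 3247 ± 268 at E8.5, Ramp2, a co-receptor for adrenomedullin, 1119.9 ± 275 and 2275 ± 506, and Sox18 54.6 ± 23 and 144 ± 53.4, a call lost with median scaling (adjusted p 0.0516). Robo4, Notch4 and Mmrn2, which are found on established vessels, rose, to 242 ± 70.3, 1107 ± 60.8 and 459 ± 133 at E10.5, against 58.9 ± 13.9, 647 ± 58.7 and 227 ± 31.8 at E8.5. A second probe of Mmrn2 was level (207 at E10.5 and 209 at E8.5, adjusted p 0.944). The defining markers Kdr (131 ± 7.83 at E10.5, 102 ± 21.5 at E8.5, adjusted p 0.431) and Cdh5 (158 ± 78.1 and 241 ± 51.9, adjusted p 0.135) were present at both stages and not called. Cdh5 was called lower with the replicate number as a block (adjusted p 0.014) and without E10.5 embryo 4 (adjusted p 0.0399).

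Macrophage genes rose in 10 of 18, with 0 lower, and 2 of the 18 had a mean signal of at least 50. Those 2, Coro1a and Laptm5, made up much of the summed signal, which was 1058 to 1371 at E10.5 and 264 to 383 at E8.5. C1qb, a complement component of tissue macrophages, had 45.5, 40.8, 54.5 and 86.1 at E10.5, against −12.502, −14, −18.9 and −16.6 at E8.5 (log2FC 0.75 ± 0.07, adjusted p 2.41e-08). Mrc1, the mannose receptor, averaged 93.1 ± 36.9 at E10.5 and 3.74 ± 5 at E8.5, and Lyz2, lysozyme, 31.3 ± 12.54 and −10.2 ± 2.26. These genes were at background in all heads at E8.5 and weakly above it at E10.5. Coro1a, an actin regulator of leucocytes, was brighter (432 ± 25.5 at E10.5, 86.8 ± 13.8 at E8.5, log2FC 1.42 ± 0.08). Laptm5, a lysosomal protein of leucocytes, averaged 504 ± 58.9 at E10.5 and 324 ± 37.1 at E8.5, and its call was lost with median scaling.

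**Figure D5:**
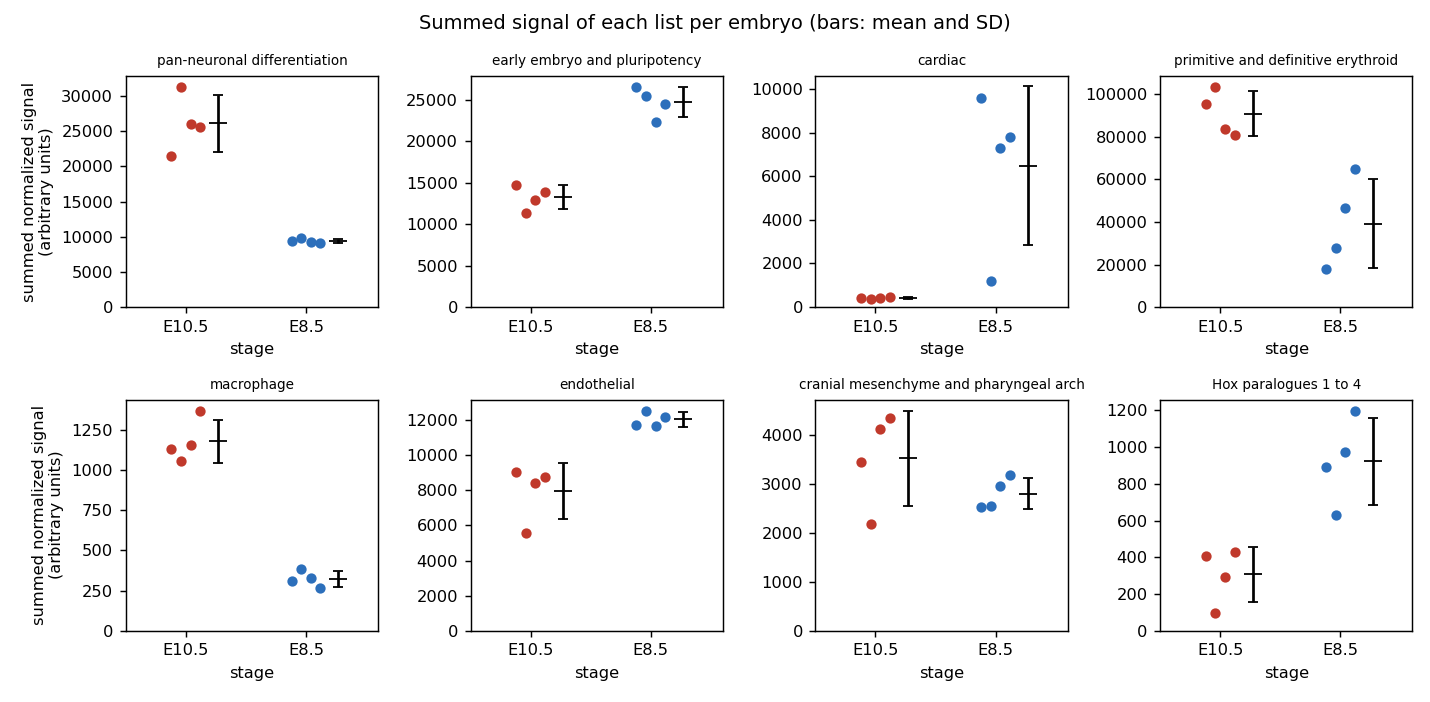
Summed normalized signal (vertical axis, arbitrary units) of gene lists in the 4 embryos at E10.5 (left) and at E8.5 (right), with the mean and SD beside the points. Heart genes summed to 393 to 454 at E10.5 and to 1217 to 9595 at E8.5, where embryo 2 was the lowest, and macrophage and pan-neuronal sums lay higher in every head at E10.5.

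Genes of the neural crest, the migratory cells that form facial skeleton, pigment cells and peripheral glia, rose in 3 of 17 and fell in 5. A mean signal of at least 50 was reached by 9 of the 17, and over all genes that bright 16.1% rose and 17.4% fell. Sox10, a factor of migrating crest and glia, had 289, 34.6, 390.2 and 367 at E10.5, against 1475, 1829, 1505 and 1763 at E8.5 (log2FC −2.33 ± 0.29, adjusted p 3.19e-06). Embryo 2 was far below the other heads at E10.5, and without it the log2FC was −1.94 (adjusted p 4.71e-06). Tfap2a, a factor of early crest and ectoderm, averaged 523 ± 127 at E10.5 and 1029 ± 50.3 at E8.5, and Kit, a receptor of melanoblasts, 249 ± 42.3 and 453 ± 38.8. Dct, an enzyme of melanin synthesis, rose (60.3 ± 34.5 at E10.5 and −5 ± 1.8 at E8.5), and embryo 2, low in Sox10, was the highest in Dct at 112.

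In cranial mesenchyme 3 of 25 genes rose and 2 fell, near the shares over all genes (7.93% and 7.84%). Alx4, a homeobox gene of the frontonasal mesenchyme, had 614, 239, 639.6 and 583 at E10.5, against 139, 135, 116 and 149 at E8.5 (log2FC 1.26 ± 0.28, adjusted p 0.00312), and was not called with embryo means (adjusted p 0.0725). Edn1, the endothelin ligand that patterns the lower jaw, had 23.6, 24.1, 37.8 and 39.3 at E10.5, against 497, 519, 549 and 615 at E8.5 (log2FC −2.14 ± 0.05, adjusted p 3.13e-18). Lhx8, a LIM homeobox gene of the first arch and ventral forebrain, had 38.6 ± 29.3 at E10.5 and −9.51 ± 1.7 at E8.5. The connective tissue gene Mfap4 rose (323 ± 103 at E10.5, 91 ± 31.4 at E8.5), 1 of 3 among 25 matrix genes, also near the share over all genes. Col5a2, a fibrillar collagen gene, rose as well (34.4 ± 19.8 and −5.67 ± 4.34), a call lost with median scaling and without E10.5 embryo 1 or 2 or E8.5 embryo 1, 3 or 4 (adjusted p 0.0632 to 0.109).

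Surface ectoderm genes fell in 9 of 25 and rose in 2, against 7.84% and 7.93% of all genes. Rab25, a GTPase of epithelial cells, had 96.3, 118, 187 and 157 at E10.5, against 690.3, 605, 769 and 802 at E8.5 (log2FC −1.70 ± 0.17, adjusted p 1.75e-07). Spint1, an inhibitor of epithelial serine proteases, averaged 313 ± 55.5 at E10.5 and 1224 ± 200.2 at E8.5, and the keratins of simple epithelia Krt8 and Krt18 averaged 108 ± 34.7 and 150.4 ± 8.55 at E10.5, against 412 ± 125 and 489 ± 115 at E8.5. The members that rose, Trp63, a factor of stratified epidermis (268 ± 70.4 at E10.5, 84.3 ± 12.3 at E8.5, adjusted p 0.0233), and the claudin gene Cldn3 (48.7 ± 10.3 and 22.4 ± 7.31, adjusted p 0.0229), were the less stable calls: with median scaling and with embryo means neither was called, and the calls were lost without E10.5 embryo 2 or E8.5 embryo 1 or 2 (adjusted p 0.0633 to 0.0727 for Trp63 and 0.0752 to 0.106 for Cldn3) and, for Trp63, without E10.5 embryo 3 or 4 or E8.5 embryo 4 (adjusted p 0.0512 to 0.0811).

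Among genes best known from tissues outside the head, a few fell. Prl2c2, a prolactin-family hormone made by trophoblast giant cells of the placenta, had 26.5, 40.9, 31.4 and 32.5 at E10.5, against 88.6, 1069, 1808 and 315 at E8.5 (log2FC −2.10 ± 0.39, adjusted p 0.000458). All E8.5 heads lay above all E10.5 heads, but the E8.5 values differed widely among themselves, and within the 4 sets of arrays the gene was called only on the right sides of embryos 3 and 4 (adjusted p 0.00566). Of 22 genes of yolk sac and endoderm 1 rose and 3 fell, against 7.93% and 7.84% of all genes. Those that fell included Amn, an endocytic receptor partner of visceral endoderm (36 ± 5.29 at E10.5, 142 ± 50.3 at E8.5), and Spink1, a trypsin inhibitor (−7.47 ± 4.44 and 129 ± 68.2). Afp and Ttr, the defining yolk sac genes, were not called, Afp at −3.27 and −1.79 and Ttr at 73.7 and −2.2, in that order of stages. The member that rose was Trf, the iron carrier transferrin (24 ± 9.38 and −4.23 ± 7.14). Phlda2, an imprinted gene that limits placental growth, had 24.9, 21.6, 46.3 and 38.2 at E10.5, against 622, 341, 625 and 677 at E8.5 (log2FC −2.14 ± 0.14, adjusted p 1.52e-10).

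Phlda2 was 1 of 3 imprinted genes to fall and Cdkn1c 1 of 3 to rise among 22. Of the 22, 13 had a mean signal of at least 50, and over all genes that bright 16.1% rose and 17.4% fell. Nnat, a membrane protein of developing neurons, averaged 2049 ± 351 at E10.5 and 662 ± 160.1 at E8.5 (log2FC 1.48 ± 0.15), and Peg3, a zinc-finger gene, 832 ± 246 and 2018 ± 437 (log2FC −1.19 ± 0.18). Dlk1, a Notch-family ligand, averaged 2651 ± 1165 and 947 ± 423 with embryos 1 and 2 above embryos 3 and 4 at both stages, and its adjusted p of 0.035 became 0.118 to 0.15 without E10.5 embryo 1 or 2 or E8.5 embryo 3 or 4, 0.145 with median scaling and 0.101 with embryo means. A second probe of Dlk1, nearly as bright, rose more clearly (2308 at E10.5 and 732 at E8.5, log2FC 1.52, adjusted p 5.97e-07). Gnas was read from a probe that fell (107 ± 23.2 at E10.5, 305 ± 66.5 at E8.5), and of its 6 other probes 2 fell and 4 were not called.

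In DNA methylation 4 of 12 genes fell, Dnmt3b and Tet1 among them, and 1 rose, Mbd2, which binds methylated DNA (711 ± 126 at E10.5 and 518 ± 81.2 at E8.5). Its call was lost with median scaling, with embryo means, and without E10.5 embryo 2 or E8.5 embryo 3 or 4 (adjusted p 0.073 to 0.114). Among 18 lens genes 1 rose, the homeobox gene Prox1 (176 ± 27.4 at E10.5, 128 ± 14.6 at E8.5), a call lost with median scaling and without E10.5 embryo 3 (adjusted p 0.0637) or E8.5 embryo 2 (adjusted p 0.0552). Against shares of 7.93% higher and 7.84% lower over all genes, 2 of 21 genes of cartilage precursors rose and 0 fell. Of 19 skeletal muscle genes 0 rose and 2 fell. One was Acta1, the skeletal actin gene, with −0.58, −1.91, 37.7 and 2.42 at E10.5, against 293, 7.19, 171 and 193 at E8.5. The stages overlapped in E8.5 embryo 2, the head that was low in heart genes, and the call was lost with embryo means and without E10.5 embryo 1, 2 or 4 or E8.5 embryo 1, 3 or 4 (adjusted p 0.0562 to 0.101). The other was Tnnt1, a slow troponin T (187 ± 35.6 at E10.5, 429 ± 42.2 at E8.5), whose call was lost with embryo means and when any of the 8 embryos was left out (adjusted p 0.0508 to 0.103).

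The genes of immediate early response and heat shock, which can move with the handling of tissue, gave 2 rises and 2 falls of 18. Over all genes the shares were 7.93% and 7.84%. The transcription factor gene Jun averaged 163 ± 39.9 at E10.5 and 78.2 ± 6.75 at E8.5, and the phosphatase gene Dusp1 712 ± 174 and 459 ± 72.7, a call lost with median scaling, with embryo means, and without E10.5 embryo 1 or 2 or E8.5 embryo 3 or 4 (adjusted p 0.0515 to 0.112). Junb fell (28.3 ± 6.57 at E10.5, 47.9 ± 5.42 at E8.5), and so did Egr2, which was at background at both stages (−15.2 ± 3.49 and −5.57 ± 5.61) and lost its call with median scaling, with embryo means, and without E10.5 embryo 1 or 3 or E8.5 embryo 1 or 2 (adjusted p 0.0857 to 0.147). Their part in the other results was not tested.

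Some of the leading genes belong to none of these lists. Synpo, an actin-binding protein, had 1603, 843, 1854 and 2077 at E10.5, against 208, 228, 226 and 276 at E8.5 (log2FC 2.21 ± 0.40, adjusted p 0.000405), with embryo 2 the lowest at E10.5. Crym, which binds thyroid hormone in the cytosol, averaged 752 ± 112 at E10.5 and 49.9 ± 23.7 at E8.5 (log2FC 2.24 ± 0.25). Plcg2, a phospholipase C, fell to 129, 35, 105 and 88.9 at E10.5, against 827, 967, 684 and 795 at E8.5 (log2FC −2.18 ± 0.11, adjusted p 3.45e-12). Among the brightest genes of the arrays, Ybx1, a cold-shock protein that binds mRNA, averaged 26773 ± 969 at E10.5 and 31261 ± 704 at E8.5, a small fall by ratio and a large one by signal (log2FC −0.22 ± 0.06, adjusted p 0.00775), while its second brightest probe was not called (9868 at E10.5 and 8540 at E8.5, adjusted p 0.474). Trh, the gene of thyrotropin-releasing hormone, averaged 428 ± 59.1 at E10.5 and 584 ± 34.6 at E8.5 (log2FC −0.38 ± 0.09, adjusted p 0.00357).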

How the data were processed

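Total RNA of 24 sides of heads was labelled with biotin and hybridised to Illumina arrays. The deposited values are probe intensities with the background already taken off by the authors' software and no normalization between arrays. The study names BeadStudio as that software and the submitters' notes GenomeStudio, with no version given in the sources used here. The number of arrays limits the precision. A second deposited table, with 72 columns not tied to samples, was not used.

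A constant of 119.5 was added (the lowest value was −103.5), followed by quantile normalization over the 24 arrays and log2. The fit in limma 3.58.1 (R 4.3.3) took stage and side as fixed terms, and arrays of 1 embryo were treated as correlated (statmod 1.5.0, correlation 0.0893, prior proportion 0.01). That correlation is 1 value for all probes, so p-values are too small for genes whose sides vary together more, and embryo means were therefore tested as an alternative. A run of the fit on simulated data held no sets of arrays, so it could not show how the fit handles them. The platform's annotation named 32794 probes with 1 symbol, 55 had several and 13794 none. Motifs were searched with Python 3.11.15.

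Genes were named by a rule: among genes called and with embryos not overlapping, the 15 largest log2FC and the 10 largest signal changes in each direction, genes switched on or off across a signal of 50 and 300, up to 5 called members of each list and up to 3 in the opposite direction, and the genes that the study tested by qRT-PCR. No values are given for Cryba2 and Crybb1, which the study also tested by qRT-PCR. Some of the defining markers of cell types, Gnas probes and dim list members were named besides. No single values are given for other defining markers, among them Csf1r, Ptprc and Tyrobp of macrophages. The members and lists were chosen with earlier results of these data known. Deviations of same-numbered embryos from their stage mean correlated at 0.673, 0.604, 0.529 and 0.791, and those of differently numbered embryos of 1 set (1 and 2, or 3 and 4) at 0.387 to 0.774, against −0.792 to −0.374 across sets. The number was taken to pair the embryos in the block alternative, although its set, more than the number itself, was shared. Alternatives were another scaling, background treatment, filter or block, single sides and sets, and leaving out each embryo. What separate embryos of 1 litter share is not stated.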

Additional observations from a re-analysis of the deposited data

Results flagged for a closer look

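In 27 of 402 groups of 4 embryos, 1 embryo lay far from the other 3 relative to the range of the group, which chance gives in about 1 of 20 groups. No cause was tested.

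In E10.5 embryo 2 the high values were Dbx1 1199, Ttyh1 645, Hbb-bs 6406, Dct 112, Insig1 140.4 and Cldn3 64, and the low values Id2 159, Egfl7 812, Mmrn2 261, Alx4 239, Cdk6 302 and Ccne1 454. The low ones include genes of vessels and mesenchyme, and the head had the lowest summed signal of both lists at its stage. In E8.5 embryo 2 the low values were Myh7 388, Tnnt2 72, Tnnc1 38.8, Phlda2 341 and Unc5b 599. The first 3 are heart genes, of which the other heads at E8.5 held 617 to 1974.

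The remaining values lay in single heads: Nr6a1 at 276 in E10.5 embryo 1, Acta1 at 37.7 in E10.5 embryo 3, and Myl4 at 56.6, Myl3 at −2.29 and Junb at 18.5 in E10.5 embryo 4. In E8.5 embryo 1, Efnb1 was 1638, Sall4 646, Shh 228 and Xist 373, against 13.9 to 20.7 for Xist in the other 3 heads at E8.5, and in E8.5 embryo 4 Apom was 271.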

How the results depend on the processing

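Of the probes called, 0 were called in the opposite direction under any alternative. The counts of 2291 higher and 2703 lower probes became 1454 and 2659 with median scaling and 1284 and 2632 with no normalization between arrays, so that 35.4% and 32.8% of the calls were higher. They became 729 and 847 on the right sides alone, against 2365 and 2477 on the left sides alone, 1690 and 2125 with embryo means, 3716 and 4146 with the 4 sets as a block, 1039 and 1162 in the set of left sides from embryos 1 and 2, 1650 and 1262 in that from embryos 3 and 4, 1161 and 1434 in the set of right sides from embryos 1 and 2, and 1429 and 1235 in that from embryos 3 and 4. Leaving out 1 embryo gave 1860 to 2178 higher and 2058 to 2631 lower. The 210 and 110 probes beyond a log2FC of 1 became 819 and 720 with signals below 16 raised to 16, and 483 and 287 with normexp. The cause of these shifts was not tested. With the replicate number as a block 3116 probes were higher and 3698 lower, and besides Igdcc3, Hbb-bh1 and Cdh5 the block changed no call of a gene named here. Of 193 genes named and called, 29 lost the call with median scaling, 27 with embryo means, 84 on the right sides alone and 21 on the left sides alone. Signs turned for 3 genes that were not called: Sox2 (−0.24) and Pax6 (0.0828) in the set of left sides from embryos 3 and 4, Pax6 when 1 embryo was left out (−0.4042 to 0.0234, the highest without E8.5 embryo 1), and Tubb3 in the set of right sides from embryos 1 and 2 (−0.0248).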
